A study of Mus musculus with 4 samples.

Results

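Ribosome-bound RNA of sensory neurons was compared with RNA of the whole dorsal root ganglion in mice without nerve injury. A dorsal root ganglion lies beside the spinal cord and houses the cell bodies of sensory neurons. The comparison rested on 2 of the 4 libraries of the study, with 1 sample in each group. The bulk library came from adult CD-1 wild-type mice, without injury and without an antibody, and was read with a direct RNA sequencing kit (SQK-RNA002). The RiboTag library came from uninjured adult mice bred from B6N.129-Rpl22tm1.1Psam/J mice, which carry the taggable Rpl22, and B6.129P2-Aviltm2(cre)Fawa/J mice, which carry the Cre. Their genotype was RPL22HA+/+;Advillin-Cre+. Its RNA was pulled down with an anti-HA antibody and read with a cDNA-PCR barcoding kit (SQK-PCB109). A second pair of libraries, from the same strains, genotypes and kits 72 hours after sciatic nerve injury, is used below only beside the uninjured values. Strain, genotype, pull-down and kit changed together between the RiboTag and bulk samples, so their parts in any ratio cannot be told apart. The labels do not give the number of animals in a sample. With 1 sample a group, no difference has a check against other animals, and every interval below covers counting error only.

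In the RiboTag method a ribosomal protein carries a small HA tag in cells that express Cre recombinase, and an antibody to the tag recovers ribosomes with the RNA they hold. Advillin is an actin-binding protein of peripheral sensory neurons, so Advillin-Cre places the tag in these neurons and not in most other cells of the ganglion. The whole ganglion also holds satellite glia around the neuron bodies, Schwann cells around the axons, and vascular, connective tissue and immune cells. RNA of those cells, RNA held in the nucleus and RNA made inside mitochondria is present in a whole lysate and is not held by tagged cytosolic ribosomes. Fewer cells of a type and less RNA per cell cannot be told apart in such bulk measurements. Direct RNA sequencing reads native RNA strands, while the cDNA-PCR kit reads amplified copies.

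Transcripts entered with 20 or more reads, as the mean of the 3 numbered columns of each table, summed over both libraries. This held for 6174 of the 116912 transcripts listed, and these held 89.0% of bulk and 88.4% of RiboTag reads. The RiboTag share includes 2 transcripts, described below, that alone held 31.2% of that library. The tables list transcripts by identifier only. Of the identifiers, 0 matched an entry of the reference tables at hand, so the tables and files do not pair them with gene names. The 23 lists of marker genes and gene classes prepared for sensory neurons, glia, blood vessels, ribosomal proteins, mitochondria and other groups therefore gave no value, and the labelled cell type could not be checked against its defining markers. Transcripts are described below by their place in abundance or ratio, and 2 in each direction by identifier. Just inside the minimum, 239 transcripts had 20 to under 21 reads and a median log2 ratio of RiboTag over bulk of -0.19. Just outside it, 231 had 19 to under 20 reads and a median of -0.24.

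The 3 columns of a library differed little in total (592561 to 593605 estimated reads for bulk, 207523 to 207696 for RiboTag RNA) and were averaged as 1 sample. A pair of RiboTag transcripts held 64726 of 207597 reads, or 31.2% (exact binomial 95% interval 31.0% to 31.4%), and 0.0189% of bulk reads (0.0156% to 0.0227%). This pair was left out of both totals, which left 142870 RiboTag and 592823 bulk reads for scaling. Levels below are in CPM (counts-per-million of these totals), with no transcript length in them. A single read was worth a level of 7.0 in RiboTag and 1.69 in bulk RNA, and the 3 reads that a count of 0 allows were worth 21 and 5.06. Reads carried no molecular identifiers, so amplified RiboTag reads need not be separate molecules.

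Apart from that pair, reads were spread over transcripts in nearly the same way in both RNA pools. The 10 most abundant transcripts held 9.72% of bulk reads and 10.7% of RiboTag reads, and the top 100 held 25.7% and 25.8%. The top 1000 held 57.0% and 56.6%. Reaching 50% of reads took 666 transcripts in bulk and 680 in RiboTag RNA, and reaching 90% took 6268 and 6085. With the pair left in, 50% of RiboTag reads lay in 121 transcripts.

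**Figure D1:**
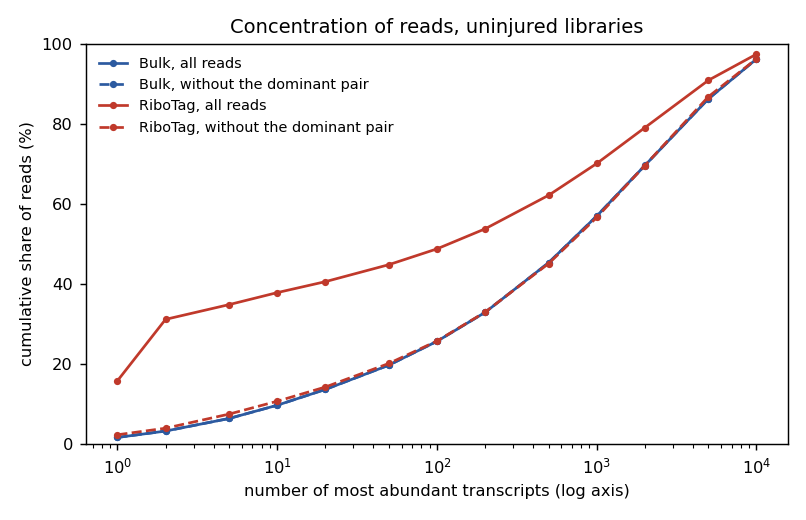
Cumulative share of reads (vertical axis, %) held by the most abundant transcripts (horizontal axis, number of transcripts on a log scale) in the uninjured bulk and RiboTag libraries, 1 library each, with all reads and without the dominant pair. Without the pair the RiboTag and bulk curves lie close together, at 25.8% and 25.7% for the top 100 transcripts.

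The transcripts that filled those shares differed between the pools. Without the pair, 1 transcript was among the 10 most abundant of both libraries, 23 among the 100 most abundant and 407 among the 1000 most abundant. The corresponding overlap of the top 100 between uninjured and injured libraries was 90 for bulk and 71 for RiboTag RNA.

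A transcript was counted as higher or lower in RiboTag RNA at a 2-fold ratio or more with an exact conditional binomial 95% interval that excluded no change, after 0.5 read was added to each count. By this rule 1271 of 6174 transcripts (20.6%) were higher and 1955 (31.7%) lower, 52.3% in all. Those counted as higher had a median log2 ratio of 2.13 and those counted as lower -2.70, or -2.08 with a count of 0 set to 3 reads. The median over all 6174 was -0.45, and the middle of the distribution ran from -1.88 at the lower to 0.85 at the upper quartile. A ratio of 8-fold or more was reached by 331 of the higher and 852 of the lower transcripts, and one of 32-fold or more by 119 and 156. The fitted size of the steepest ratios depends on the added 0.5 read, since 77 of the higher transcripts had 0 bulk reads and 550 of the lower ones had 0 RiboTag reads. The added count and the read minimum also decided which direction prevailed. Adding 5 reads gave 1301 higher and 994 lower at a median of 0.15, and no read minimum gave 2726 and 2075 at a median of 0.84. An added read was worth 7.0 CPM in RiboTag and 1.69 in bulk RNA. Adding the same count to 2 equal low levels therefore raises the ratio. The split also depended on the scaling. Higher transcripts were 39.4% of those counted here and 24.7% with the dominant pair left in the totals, which moved the median by -0.54. TMM scaling moved the median by -0.21 and median-of-ratios scaling by -0.25.

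**Figure D2:**
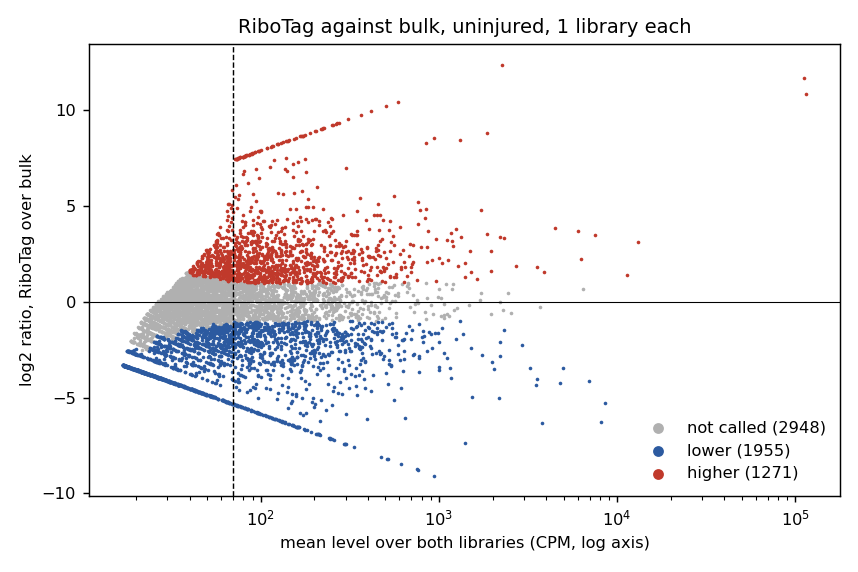
Log2 ratio of RiboTag over bulk RNA (vertical axis) against the mean level over both libraries (horizontal axis, CPM, log scale) for 6174 transcripts, coloured by whether they were counted as higher (1271), lower (1955) or neither (2948). The straight edges above and below are transcripts with 0 reads in 1 library, whose height is set by the added 0.5 read, and the dashed line marks 70.0 CPM, below which a transcript present only in RiboTag RNA could not enter.

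With this scaling the excess of lower transcripts lay at low levels, where the read minimum itself treats the libraries unequally. A transcript found only in bulk RNA entered from 33.7 CPM, whereas one found only in RiboTag RNA needed 140.0. Among the 2783 transcripts with a mean level of at least 70.0 CPM, which either library alone could supply, 960 were higher and 845 lower, and the median log2 ratio was 0.10. That balance held only for the scaling used here. The same level minimum gave 761 higher and 1479 lower with the pair in the totals, 865 and 1075 with TMM, and 855 and 1111 with median-of-ratios scaling. Among the 3391 transcripts under that level, 311 were higher and 1110 lower, at a median of -0.84.

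In the level classes from 70.0 CPM upward, 31.6% to 40.7% of transcripts were higher and 27.8% to 39.3% were lower. The most abundant class, 86 transcripts at 1000 CPM or more, had 35 higher, 29 lower and 22 neither. Its higher members had a median log2 ratio of 3.12 and its lower members -3.44, against 2.34 and -2.18 in the class from 70.0 to 100 CPM. The median width of the counting interval was 0.55 log2 units in the most abundant class and 3.35 under 70.0 CPM, so values are most precise among abundant transcripts.

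**Figure D3:**
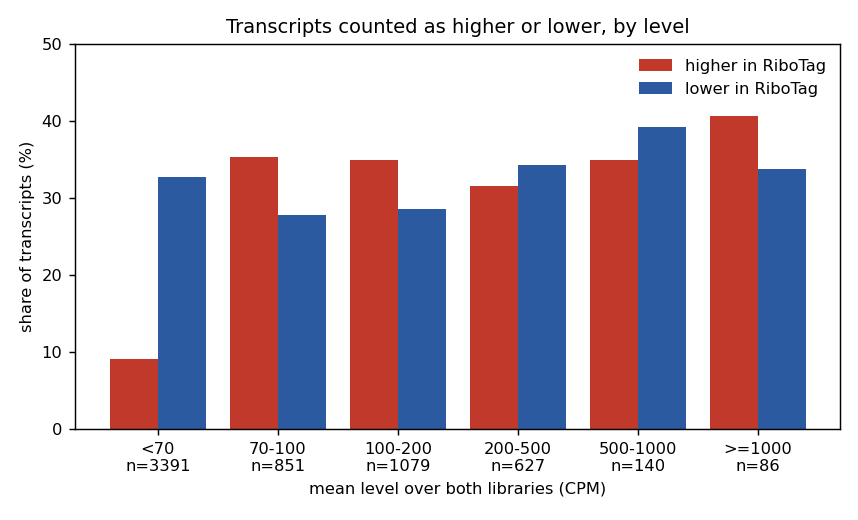
Share of transcripts counted as higher (red) or lower (blue) in RiboTag RNA (vertical axis, %) by mean level over both libraries (horizontal axis, CPM), with the number of transcripts in each class. Below 70.0 CPM 9.17% were higher and 32.7% lower; from there upward the shares lie between 27.8% and 40.7%, and under the other scalings tried lower transcripts outnumber higher ones at these levels together.

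The most abundant transcripts of the whole ganglion were mostly scarce in the ribosome-bound pool. Of the 10 most abundant bulk transcripts, 9 were lower in RiboTag RNA and 1 higher. The 10 held 9.72% of bulk and 2.04% of RiboTag reads. Their log2 ratios ran from -6.32 to 1.40 with a median of -4.19. The counts were 9 lower under every scaling tried. Of the 100 most abundant bulk transcripts, 71 were lower, 8 higher and 21 neither, at a median log2 ratio of -2.12. Picking transcripts for their abundance in bulk RNA, a library of the ratio, by itself favours low ratios.

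ENSMUST00000082405.1 was the most abundant bulk transcript. It had 9853, 9980 and 9811 bulk reads in the 3 columns, against 50.6, 66.7 and 67.0 RiboTag reads. Every bulk column stood far above every RiboTag column, more than the difference in depth between the libraries. The scaled ratio was 38.5-fold lower in RiboTag RNA. On the log2 scale this was -5.27 (95% interval of counting error -5.67 to -4.92). After injury it had 8054, 8247 and 8232 bulk reads and 21.0, 28.0 and 23.0 RiboTag reads. The injured log2 ratio was -4.89 (-5.56 to -4.34), and that interval overlaps the uninjured one.

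The abundant bulk transcripts stood close together in the authors' list. Of the 10, 7 lay within 13 consecutive places that include ENSMUST00000082405.1, and this stretch was singled out after its values were seen. All 13 transcripts had 20 or more reads, 12 were counted as lower and 0 as higher, with log2 ratios from -7.34 to -1.29 and a median of -4.24. Together they held 49011 bulk reads, 8.27% of the library (8.20% to 8.34%). They held 450.0 RiboTag reads, 0.217% (0.197% to 0.238%) of all RiboTag reads and 0.315% without the dominant pair. The summed ratio was 26.2-fold lower, a log2 ratio of -4.71 (-4.85 to -4.58). In the injured libraries the same places held 7.07% of bulk and 0.209% of RiboTag reads, or 0.354% of RiboTag reads without the pair. The log2 ratio was -4.32 (-4.55 to -4.10). Leaving the stretch out of both totals gave 1168 higher and 2084 lower among the other 6159 transcripts outside the dominant pair, with a median of -0.56. What the 13 transcripts encode is not given by the tables used here.

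The transcript at rank 9 had 3616, 3675 and 3771 bulk reads and 2349, 2315 and 2353 RiboTag reads, and was the only one of the 10 counted as higher. Its log2 ratio was 1.40 (1.32 to 1.47), and it was also the second most abundant RiboTag transcript after the dominant pair. The transcript at rank 10 had 3521, 3586 and 3539 bulk reads and 76.3, 80.6 and 75.5 RiboTag reads, a log2 ratio of -3.46 (-3.82 to -3.15).

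The most abundant ribosome-bound transcripts were mostly at higher levels there than in the whole ganglion. Without the dominant pair, 9 of the 10 most abundant RiboTag transcripts were counted as higher and 0 as lower. With the pair in the totals 8 were higher, and at a 4-fold threshold 6. The 10 held 10.7% of RiboTag and 2.23% of bulk reads, with a median log2 ratio of 2.68. Of the 100 most abundant, 76 were higher, 2 lower and 22 neither, at a median of 2.22. Picking for abundance in RiboTag RNA by itself favours high ratios.

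ENSMUST00000022638.6 led the RiboTag library after the dominant pair. It had 3348, 3347 and 3317 RiboTag reads in the 3 columns and 1620, 1514 and 1633 bulk reads, so that the shallower library held more of them. It was 8.71-fold higher in RiboTag RNA, a log2 ratio of 3.12 (3.04 to 3.21). Its columns differed by little beside that gap, with single-column log2 ratios of 3.07 to 3.20. After injury it had 763, 778 and 746 RiboTag reads and 1895, 1870 and 1847 bulk reads. The injured log2 ratio of 2.20 (2.08 to 2.32) was also above 2-fold, and its interval lay below the uninjured one.

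Ratios varied among the other abundant RiboTag transcripts, from a log2 ratio of 0.65 to one with 0 bulk reads. The transcript at rank 6 had 1196, 1154 and 1232 RiboTag reads against 333, 343 and 334 bulk reads, a log2 ratio of 3.88 (3.70 to 4.06), the steepest of the 10 among those with bulk reads. After injury its log2 ratio was 3.53 (3.29 to 3.77). The transcript at rank 7 had 1112, 1136 and 1133 RiboTag and 2980, 2971 and 2981 bulk reads, and was the only one of the 10 not counted, at a log2 ratio of 0.65 (0.55 to 0.75). The columns of all 10 agreed within each library by a chi-square test at 0.001.

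**Figure D4:**
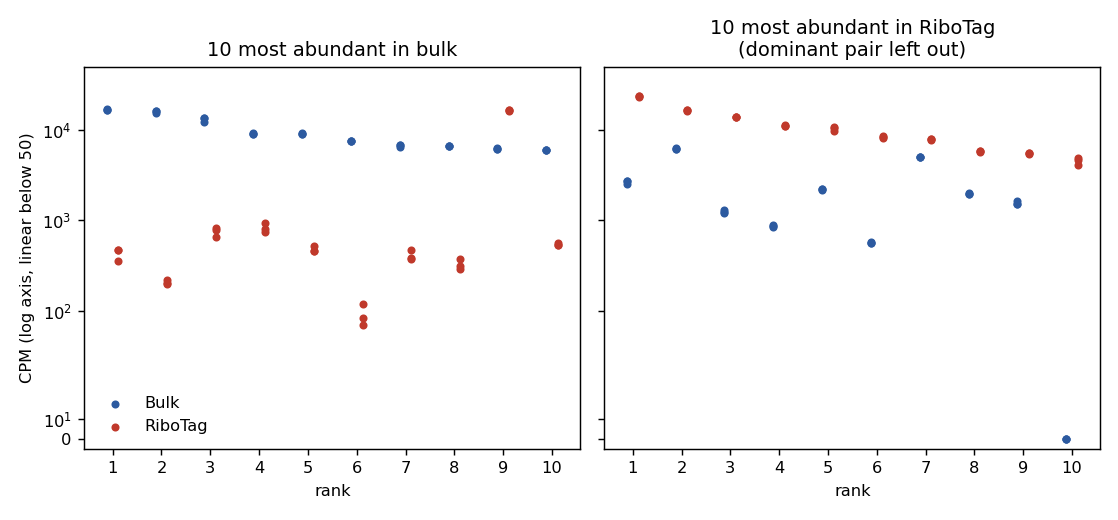
Level in CPM (vertical axis, log scale, linear below 50) of the 10 most abundant bulk transcripts (left) and the 10 most abundant RiboTag transcripts without the dominant pair (right), by rank; each transcript has 3 points per library, 1 for each column of the table. On the left the RiboTag points lie below the bulk points for 9 of 10 transcripts, and on the right above them for all 10, with rank 10 at 0 in bulk RNA.

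The dominant pair had 32868 and 31858 mean RiboTag reads. Its first member had 0, 108 and 110 bulk reads in the 3 columns and its second member 117, 0 and 0, so each bulk column gave all reads to 1 of them. Their log2 ratios, 10.86 (10.54 to 11.22) and 11.71 (11.28 to 12.22), therefore rest on how bulk reads were assigned as well as on abundance. In the injured libraries their log2 ratios were 11.50 and 12.24.

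Outside the dominant pair, the steepest fitted ratios came from transcripts seen in 1 library only, and their size depends on the added count. By the naming rule, the 10 highest among transcripts with 50 or more reads and the same call in each column alone included the dominant pair and 8 transcripts with 0 bulk reads, at least 105-fold to 897-fold higher. The pair had reads in both libraries, and its ratios of 3339-fold and 1857-fold lay above those bounds. The 10 lowest all had 0 RiboTag reads and were at least 28.3-fold to 89.3-fold lower. All 20 were counted in the same direction in the injured libraries.

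Outside the dominant pair, ENSMUST00000154078.3 had the highest fitted ratio. Its 3 RiboTag columns held 694, 666 and 585 reads and its bulk columns 0, so it was at least 897-fold higher, and it was at rank 10 in RiboTag RNA without the pair. In the injured libraries it had 364, 215 and 0 RiboTag reads and again 0 bulk reads, at least 727-fold higher. ENSMUST00000118875.8 had the lowest fitted ratio. Its bulk columns held 1205, 1195 and 934 reads and its RiboTag columns 0, so it was at least 89.3-fold lower. In the injured libraries it had 1027, 1254 and 1078 bulk reads and 0 RiboTag reads, at least 33.0-fold lower. Neither transcript had a read in the other assay in either state.

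Such contrasts belong to single transcripts and need not hold for their neighbourhood in the list. Summed with the 10 places on either side, ENSMUST00000154078.3 had a log2 ratio of 3.75 and ENSMUST00000118875.8 of -0.79, the latter no longer 2-fold. This sum left ENSMUST00000022638.6 at 3.09 and ENSMUST00000082405.1 at -4.71, but it includes the transcript's own reads. For ENSMUST00000022638.6 these were 3337 of 3339 RiboTag reads, so its sum says little about neighbours. The sum for ENSMUST00000082405.1 holds the same reads as the stretch of 13 places above and is no separate result. In 9 cases a transcript with 0 bulk reads stood next to one with 0 RiboTag reads. Of their 9 sums, 6 were 2-fold or more higher in RiboTag RNA (log2 ratios up to 2.03) and 3 were under 2-fold (-0.89 to -0.30). Each member entered through 1 library alone, and the bulk library was deeper. Near-equal reads therefore sum to a higher ratio, as for 24.8 RiboTag and 25.2 bulk reads at 2.03. The direction of these sums is thus partly set by the read minimum and the depth. In the case with the most reads, the first had 83.0, 69.0 and 83.0 RiboTag reads and the second 612, 582 and 623 bulk reads, and added together they had a log2 ratio of -0.89 (-1.26 to -0.56). In this case both zeros recurred after injury, with 34.0 RiboTag reads for the first and 556 bulk reads for the second. Whether neighbours belong to 1 gene is not stated in the tables.

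Over all transcripts, 763 of the 1271 higher ones (60%) kept a 2-fold higher ratio when summed with the 10 places on either side, and 163 (12.8%) turned to the other direction. Of the 1955 lower ones 1015 (51.9%) stayed 2-fold lower and 363 (18.6%) turned. Such a window can hold several genes. Each sum includes the counted transcript's own reads, which by itself favours the same direction, so these shares are no separate evidence from the neighbours. A transcript counted the other way stood within 10 places of 34.5% of the higher and 25.3% of the lower transcripts. Of the transcripts counted as neither, 32% had a lower and 19.4% a higher one that near. The share was thus close to that of uncounted transcripts for the higher ones (34.5% against 32%) and above it for the lower ones (25.3% against 19.4%).

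Complete absence from 1 library was counted more often on the RiboTag side, mostly at low levels. Among the 2783 transcripts at 70.0 CPM or more, 104 had 0 RiboTag reads and 77 had 0 bulk reads. Another 446 with 0 RiboTag reads lay lower, where a transcript with 0 bulk reads could not enter. Of the 6174 transcripts, 550 had 0 RiboTag reads with 20 to 1111 bulk reads, and 77 had 0 bulk reads with 20.6 to 649 RiboTag reads. Depth differed between the libraries. A transcript with 20 bulk reads at an equal level would give 4.82 RiboTag reads, and one with 20 RiboTag reads 83.0 bulk reads. With 3 reads in place of 0, the median fold was accordingly 2.92 for the 550 and 43.1 for the 77. Of the 550, 423 (76.9%) also had 0 reads in the injured RiboTag library, against 15.1% of all 6174 transcripts. The 550 were picked for 0 RiboTag reads and entered through bulk reads alone, at a median of 36.4. The injured RiboTag library was shallower still, so this choice and the depth by themselves favour a recurring 0. Of the 77, 52 (67.5%) also had 0 reads in the injured bulk library, against 4.02% of all. The columns agreed in both uninjured libraries for 294 of the 550 (53.5%) and 54 of the 77 (70.1%), beside 5031 of all 6174.

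Most calls were also made from each column alone, but what the columns are is not given. They may not hold separate reads, so the same call in each column is no independent support. Each column taken alone gave the same call for 880 of the 1271 higher transcripts (69.2%) and for 1190 of the 1955 lower ones (60.9%). Opposite calls between columns occurred for 32 and 40 of them. The 5031 transcripts whose columns agreed by the chi-square test gave 1025 higher and 1458 lower, and their median was -0.37 on the log2 scale. The other 1143 gave 246 and 497, with a median of -0.88.

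The ratio was compared with the injured pair of libraries, which shares no sample with the uninjured pair but shares its kits, strains and genotypes. In that pair 679 of 5045 transcripts (13.5%) were higher and 892 (17.7%) lower, 31.1% in all, at a depth of 46859 RiboTag reads without the dominant pair. Of the 6174 transcripts, 4687 had 20 or more reads there too. Among these, 556 were higher in both states, which is 68.2% of those higher without injury and 84.1% of those higher after it. Likewise 778 were lower in both, 46.5% of those lower without injury and 89.9% of those lower after it. Of 815 transcripts higher without injury, 793 (97.3%) had a ratio above 0 after injury on the log2 scale. Of 1673 lower ones, 1628 (97.3%) had a ratio below 0. The injured median over all 4687 was -0.43, so most transcripts lay below 0 in any case. One that entered the injured pair with 0 RiboTag reads is below 0 by the read minimum alone.

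With the scaling used here, the size of the ratio was also similar in both states. Other scalings moved the 2 states unequally. The uninjured median over 6174 transcripts was -0.45 here, -0.66 with TMM and -0.69 with median-of-ratios scaling. The injured median over 4687 was -0.43, -1.01 and -1.12. The values that follow were not computed under those scalings. The 815 higher transcripts had a median log2 ratio of 1.85 without and 1.85 with injury, and the 1673 lower ones -2.53 and -2.02. The shallower injured RiboTag library limits how low a ratio can be measured. Between the states, the 4687 transcripts had a Pearson's r of 0.86 and a Spearman's rho of 0.86. These describe transcripts that share kits, strains and read assignment, and they are not replicates. The log2 ratios lay within 1 unit of each other for 3239 transcripts (69.1%). Among the 3714 whose columns agreed in all 4 libraries r was 0.88 and rho 0.87.

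**Figure D5:**
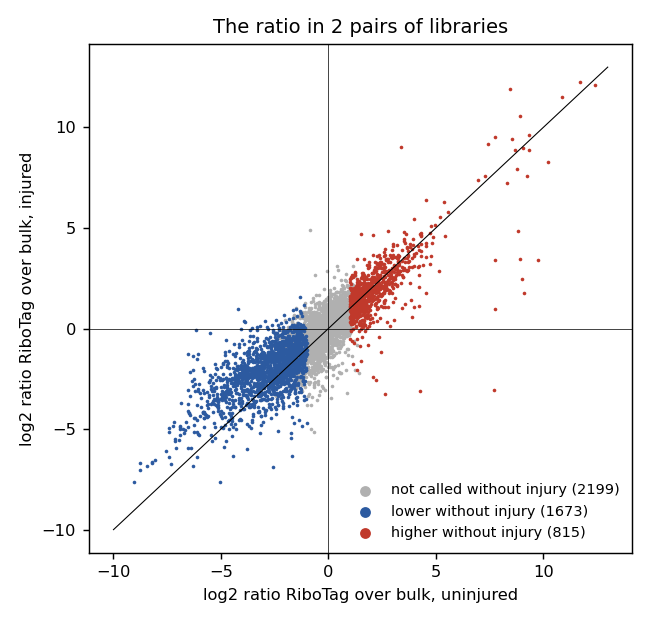
Log2 ratio of RiboTag over bulk RNA in the injured pair of libraries (vertical axis) against the uninjured pair (horizontal axis) for the 4687 transcripts with 20 or more reads in both pairs, coloured by the uninjured count; the diagonal marks equal ratios. With the scaling used here most points follow the diagonal. After injury 793 of 815 higher transcripts lie above 0 and 1628 of 1673 lower ones below 0, with a median of -0.43 over all 4687.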

How the data were processed

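Per the file headers, the deposited tables hold estimated counts and TPM for 3 numbered columns per library. The submitters' processing notes name minimap2, Salmon, GRCm39 and mm39. Tool settings, and what the columns are, were not given in the sources used here. The deposited TPM equalled the estimated count times a constant (within 0.0499%), so only estimated counts were used. Columns were averaged and counted as 1 sample. Ratios, exact conditional binomial intervals (counts rounded to whole numbers) and the 2-fold rule were computed in Python 3.11.15 with scipy 1.17.1 and tested on simulated data. Alternative scalings used edgeR 4.0.16 (TMM) and DESeq2 1.42.0 (size factors); no count model was fitted, since each group has 1 sample. The naming rule took the 10 highest and lowest ratios with 50 or more reads and the same call in every column, and the 10 most abundant transcripts of each library; identifiers are printed for the first eligible of each, outside the dominant pair. Comparison, members and lists were chosen with earlier results of these data known. The planned sums per gene and the gene lists were not used, because no table paired the identifiers with genes.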

Additional observations from a re-analysis of the deposited data

Results flagged for a closer look

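Among the 4687 transcripts with 20 or more reads in both pairs of libraries, 6 were counted in opposite directions, all higher in RiboTag RNA without injury and lower after it, and the difference was not tested. For 0 of the 6 did the columns agree in all 4 libraries.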

How the results depend on the processing

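Of the 4 transcripts named by identifier, 3 kept their direction and their call under 12 alternatives. ENSMUST00000118875.8 kept them under 11 and is not among the transcripts whose columns agree. The equal level minimum was added after the data were seen. No paired analysis was possible because each group has 1 sample. The counts per gene and per gene list were not run. Without injury (1271 higher, 1955 lower), a pseudocount of 5 gave 994 lower beside 1301 higher, no read minimum 2726 higher beside 2075 lower, a minimum of 50 reads 578 and 1198, a 4-fold threshold 698 higher, and the equal level minimum 845 lower. After injury, for the same transcripts (661 higher, 865 lower), totals with the dominant pair gave 377 and 1710, TMM 435 and 1475, and median-of-ratios scaling 398 and 1613. A pseudocount of 5 gave 327 lower, no read minimum 1812 higher, a minimum of 50 reads 298 higher, a 4-fold threshold 380 higher, and the equal level minimum 287 and 280. Beyond the unequal weight of an added read in the libraries, the cause of these shifts was not tested. Leaving out each column in turn gave 1253 to 1302 higher and 2013 to 2064 lower without injury. The columns may not hold separate reads, so this is no independent check. RiboTag depth limits how low a ratio can be measured.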
